A study of Mus musculus with 32 samples.

Results

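Whole-lung RNA of 4 Bmal1 knockout (KO) and 4 wild type (WT) mice was compared in libraries made without any RNA selection, called NoSelect. These 8 libraries, numbered KO 3 to KO 6 and WT 3 to WT 6, were chosen by name from the 32 libraries of the series. The other 24 libraries were made from the lungs of 6 mice a genotype after rRNA pull-down (RiboZero) or after polyA selection (PolyA), and mice 3 to 6 of each genotype have all 3 preparations. All mice were adults of 8 to 18 weeks. The WT mice are labelled C57b/6 and the others Bmal1 knock-outs, with no treatment in either group. The labels give neither the knockout allele nor the cells in which it acts, the strain background of the knockouts, or the time of day of collection. Each NoSelect library combined 6 preparations of 15 ng of total RNA with 11 cycles of PCR, while RiboZero and PolyA libraries started from 200 ng. Each library stands for 1 mouse. In bulk tissue, fewer cells of a type and less RNA per cell cannot be told apart.

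BMAL1, encoded by Arntl, pairs with CLOCK or NPAS2 and binds E-box sequences in the promoters of its target genes. Among these targets are the Per and Cry genes, whose proteins repress the same pair, and Nr1d1 and Nr1d2, whose proteins REV-ERB alpha and beta repress Arntl, Npas2 and Cry1. The ROR receptors compete with the REV-ERBs for the same sites. In lung this clock is known from airway secretory cells and macrophages, where it sets the daily course of chemokine output.

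Total counts ran from 74979802 to 115059756 a library. A pair of rows, Lars2 and the transcript ENSMUST00000182010, held 67.8% to 71.5% of them and was left out, which left 22009262 to 37100656 counts. Levels are CPM (counts divided by this remainder and brought to a common library size), scaled between libraries by TMM. A row was called where edgeR's quasi-likelihood test gave a Benjamini-Hochberg adjusted p under 0.05 over all rows tested. Changes are log2 fold changes of KO over WT, with the standard error (SE) of the fit. Replicates of a group differed by 10.8 to 27.0 times the chi-square expected from counting alone, over 12 pairs, so none was a repeat of another.

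The library KO 6 went against its labels. Its source and tissue fields name liver, while the other libraries are labelled lung. Albumin, the main secreted product of hepatocytes, stood at 0.445 CPM in KO 6 and between 0.0895 and 1.12 CPM in the other 7 libraries. The 25 hepatocyte markers summed to 24.6 CPM in KO 6, against 11.7 to 24.4 CPM elsewhere. Sftpc, the surfactant gene that defines alveolar type 2 cells, stood at 6068 CPM in KO 6 and 4119 to 5659 CPM in the others. All mice are labelled female, yet Xist, the RNA of the inactive X, was at 0.445 CPM in KO 6 and between 1627 and 1811 CPM in the other 7. The Y-linked Ddx3y, Eif2s3y, Kdm5d and Uty stood at 82.6, 36.5, 26.5 and 39.3 CPM in KO 6 and at 0 in the rest. KO 6 was also the deepest library. Counts over all rows and many of the results below are therefore also given without it.

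Of 17106 rows tested, 379 were called (2.22%), 207 higher in KO (1.21%) and 172 lower (1.01%). The median log2 fold change over all rows tested was 0.00 with a median SE of 0.09. None of the 379 rows had overlapping WT and KO libraries. Over all tested rows, 9.51% did not overlap. Without KO 6, 473 rows were called, of which 300 were among the 379. With other libraries left out the count was 276 without WT 3, 151 without WT 4, 146 without WT 5, 209 without WT 6, 308 without KO 3, 165 without KO 4 and 156 without KO 5. A core of 114 rows (0.666% of those tested), 66 higher and 48 lower, was called in the full fit and in each of these 8 fits. Of the 86 calls selected for naming, 43 belong to this core. Calls below that were lost in 1 or more of these fits are marked as such.

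**Figure D1:**
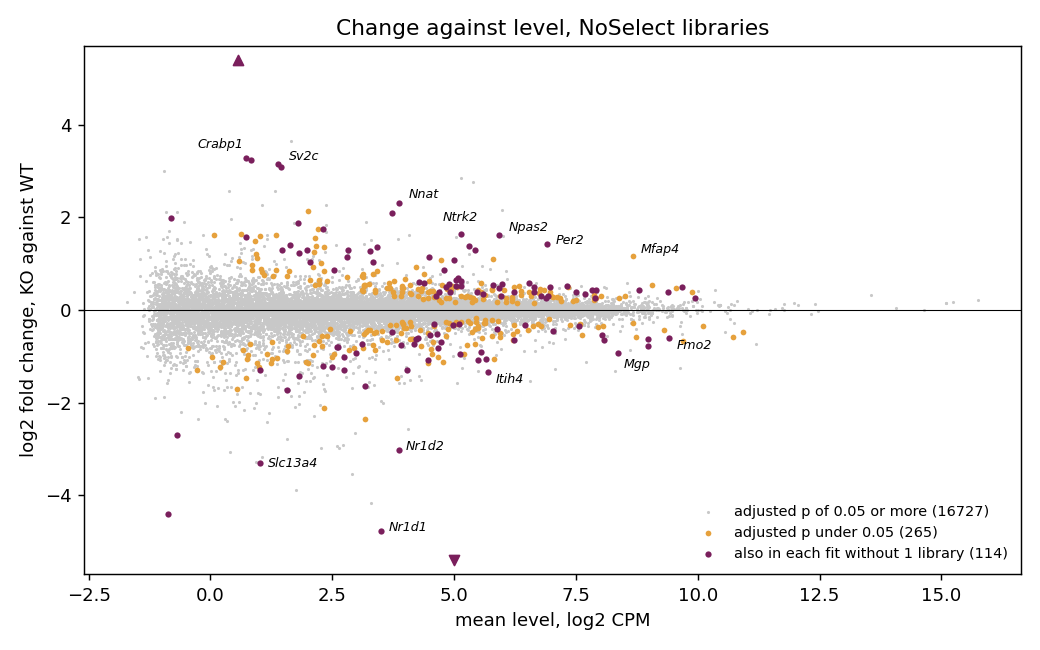
Each point is 1 of the 17106 rows tested, by its mean level in log2 CPM (x) and its log2 fold change, KO against WT (y). Grey rows were not called, 265 orange rows were called in the full fit, and 114 purple rows also in each fit without 1 library. The triangles at the upper and lower edge are the 2 called rows with a group at 0, whose fitted values lie off the scale.

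Promoter sequences of clock genes are shown first, since the BMAL1 pair is known to bind E-boxes and these letters can be searched for. Of the 21 core clock genes, 18 had RefSeq promoter windows (GRCm38.p6). The 250 bases before the start were searched on both strands for CACGTG, the canonical E-box, and CACGTT, a variant of it. The motifs share 5 letters but were counted as separate words. Below, these words are in capitals, and AACGTG is the variant read on the opposite strand. Cry1 and Nr1d1 are shown because they moved in opposite directions, and Ciart because it holds 3 E-boxes and was not called. Cry1 lies at chr10:85185055-85185304, Nr1d1 at chr11:98775378-98775627 and Ciart at chr3:95882229-95882478, all on the minus strand and printed 5′ to 3′.
Cry1: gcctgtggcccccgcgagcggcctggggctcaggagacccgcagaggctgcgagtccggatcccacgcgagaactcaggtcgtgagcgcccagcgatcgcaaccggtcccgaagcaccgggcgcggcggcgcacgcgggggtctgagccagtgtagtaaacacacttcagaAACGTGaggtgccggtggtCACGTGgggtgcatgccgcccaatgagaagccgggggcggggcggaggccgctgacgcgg
Nr1d1: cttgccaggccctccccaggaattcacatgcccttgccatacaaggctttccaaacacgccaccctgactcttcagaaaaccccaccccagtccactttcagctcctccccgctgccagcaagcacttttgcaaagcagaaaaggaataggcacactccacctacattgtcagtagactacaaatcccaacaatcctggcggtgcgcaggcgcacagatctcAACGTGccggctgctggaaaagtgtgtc
Ciart: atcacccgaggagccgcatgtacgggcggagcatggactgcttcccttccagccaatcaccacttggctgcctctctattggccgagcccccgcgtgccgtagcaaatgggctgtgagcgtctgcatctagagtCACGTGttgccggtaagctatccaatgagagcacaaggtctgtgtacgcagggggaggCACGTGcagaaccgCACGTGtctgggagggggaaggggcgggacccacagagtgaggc
Cry1 holds CACGTG 60 bases and the variant 79 bases before the start. Nr1d1 holds the variant alone, 28 bases before the start, and Ciart holds CACGTG at 116, 58 and 44 bases. Of the 18 clock genes with a window, 5 held CACGTG (Per1, Cry1, Tef, Bhlhe41 and Ciart), 4 held the variant and 10 held neither, among them Npas2 and Nr1d2. The E-box was in the window of 10.4% of the genes called higher and 8.62% of those called lower, against 9.26% of all tested genes with a window and 6.86% of all genes in the table. The variant was in 7.64% and 6.90% of those called, 5.13% of those tested and 4.50% of all. Such a match describes letters and not binding.

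Arntl itself, which lies at chr7:113207465-113314126 in GRCm38 (GENCODE M21), was measured at 33.8, 33.3, 33.1 and 31.5 CPM in WT 3 to WT 6 and at 21.4, 20.2, 21.2 and 18.9 CPM in KO 3 to KO 6. Every KO library was below every WT library, and none was near 0. The log2 fold change was −0.69 (SE 0.05, adjusted p = 0.00045), and the call held in each fit without 1 library. The counts are per gene, so reads from outside the deleted part count in full, and which part is deleted is not given. Its partners differed. Npas2, which can replace CLOCK, was at 26.9 to 33.03 CPM in WT and 85.9 to 99.1 CPM in KO, a rise of 1.62 (SE 0.08, adjusted p = 4.3e-05). Clock was at 118 to 127 CPM in WT and 124 to 142 CPM in KO, and was not called (log2 0.10, adjusted p = 0.369). Arntl2, a paralog of Arntl, was at 1.21 to 1.402 CPM in WT and 1.08 to 1.745 CPM in KO (log2 −0.01, adjusted p = 0.988).

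Both REV-ERB genes fell, and Nr1d1 fell furthest of all genes named here. It stood at 22.2, 18.3, 22.9 and 23.3 CPM in WT 3 to WT 6 and at 0.593, 1.12, 0.716 and 0.723 CPM in KO 3 to KO 6, so that KO retained 3.64% of the WT mean. The log2 fold change was −4.77 (SE 0.17, adjusted p = 1.5e-05). Nr1d2 stood at 26.5, 21.9, 24.2 and 30.6 CPM in WT and at 2.88, 3.28, 3.04 and 3.45 CPM in KO (log2 −3.02, SE 0.12, adjusted p = 1.5e-05). Neither gene had a KO library near the lowest WT library. Among the opposing receptors, Rora, at 94.0 to 131 CPM in WT and 89.6 to 134 CPM in KO, and Rorb, under 1 CPM in each library, were not called.

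Among the repressors of the BMAL1 pair, Cry1 and Per2 rose. Cry1 was at 20.7, 23.8, 22.3 and 21.02 CPM in WT 3 to WT 6 and at 54.0, 58.0, 54.5 and 61.6 CPM in KO 3 to KO 6 (log2 1.38, SE 0.06, adjusted p = 2.5e-05). Per2 was at 69.1, 61.2, 60.7 and 68.5 CPM in WT and at 170, 162, 157 and 208 CPM in KO, with KO 6 the highest (log2 1.43, SE 0.09, adjusted p = 0.00029). Cry2 was called at a smaller size, from 90.3 to 102 CPM in WT to 117 to 152 CPM in KO (log2 0.44, SE 0.08, adjusted p = 0.0317). That call was lost without WT 3, WT 4, WT 5, WT 6, KO 3 or KO 5, at an adjusted p of up to 0.101. Per1 (log2 −0.20, adjusted p = 0.529) and Per3 (log2 −0.16, adjusted p = 0.458) were not called, and KO 3 had as much Per1, at 332 CPM, as the highest WT library, at 330 CPM.

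Of the output factors and E-box repressors, Tef alone was called. Tef, a PAR bZIP activator, was at 92.0 to 117 CPM in WT and 133 to 147 CPM in KO (log2 0.38, adjusted p = 0.0393). This call held only without WT 3 and was lost in the other 7 fits without 1 library, at up to 0.115, and stood at 0.0644 without KO 6. Dbp, its close relative, was at 1.19 to 2.38 CPM in WT and 2.14 to 2.91 CPM in KO, overlapping, and was not called (log2 0.62, adjusted p = 0.234). Hlf and the opposing repressor Nfil3 were not called. Bhlhe41, an E-box repressor, was at 8.37 to 8.999 CPM in WT and 5.66 to 7.08 CPM in KO (log2 −0.40, adjusted p = 0.0597) and missed the threshold, as did Bhlhe40 (adjusted p = 0.210). Ciart, with its 3 E-boxes, was at 12.7 to 18.4 CPM in WT and 15.0 to 20.5 CPM in KO, with groups overlapping (log2 0.05, adjusted p = 0.913). Of its 31-base words, 20.8% also occur in transcripts of other genes, so its reads are uncertain.

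Over the 21 core clock genes, 6 were called higher and 3 lower (42.9% against 2.22% of all rows), with a median of 0.05. Without KO 6, 5 were higher and 3 lower. None of 12 kinase and ubiquitin ligase genes acting on clock proteins was called by edgeR, 1 had an unadjusted p under 0.05, and DESeq2 called none. Of 14 rhythmic output genes, Ypel2 alone was called (7.14%), at 21.4 to 25.2 CPM in WT and 30.4 to 35.7 CPM in KO (log2 0.49, adjusted p = 0.0085). Usp2, Wee1, Nampt and Tsc22d3, which many tissues express in a daily rhythm, were not.

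**Figure D2:**
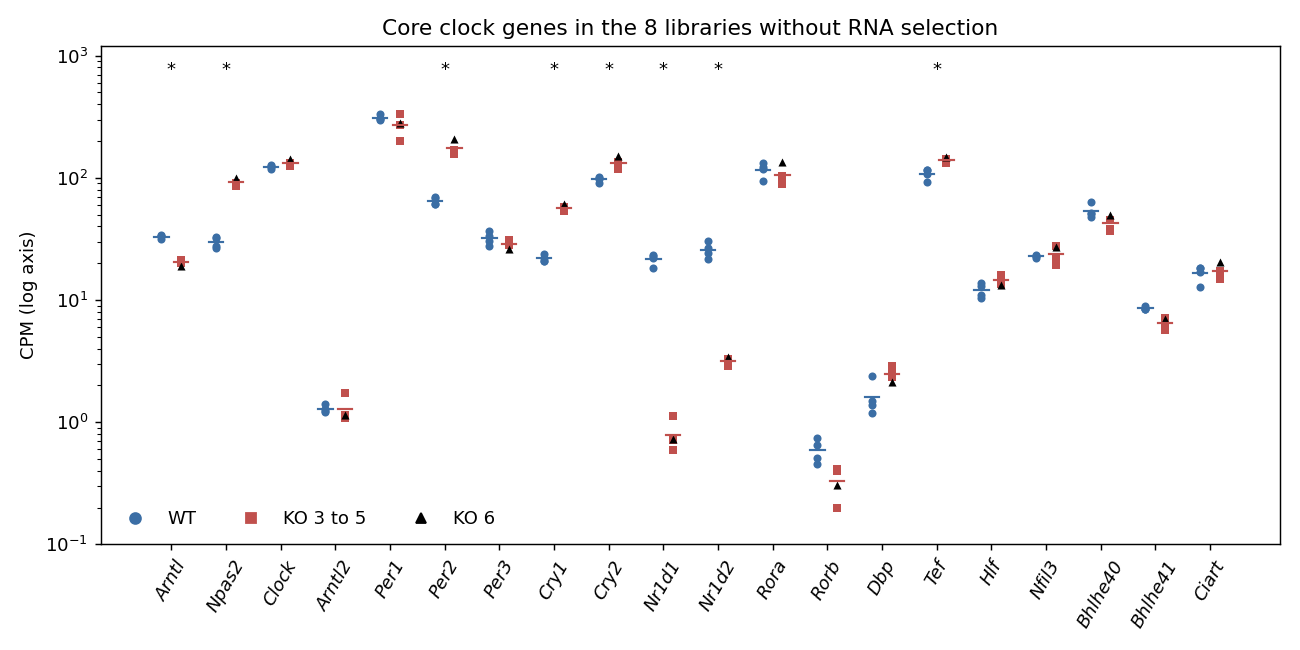
CPM of 20 core clock genes (y, log axis) in WT (blue circles), KO 3 to KO 5 (red squares) and KO 6 (black triangles), with bars at the group means and asterisks at the 8 called among them. Nr1d1 and Nr1d2 lie far below WT in KO, while Npas2, Per2 and Cry1 lie above it in each library.

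Outside the clock, several genes rose from very low levels. Crabp1, a cytoplasmic retinoic acid binding protein, was at 0.293, 0.289, 0.504 and 0.253 CPM in WT 3 to WT 6 and at 2.78, 3.64, 4.43 and 1.95 CPM in KO 3 to KO 6 (log2 3.23, SE 0.33, adjusted p = 0.0023). Sv2c, a synaptic vesicle glycoprotein, was at 0.330 to 0.685 CPM in WT and 3.65 to 6.12 CPM in KO (log2 3.16, SE 0.26, adjusted p = 0.00079). Snx31, a sorting nexin, was at 0.504 to 0.701 CPM in WT and 3.51 to 5.80 CPM in KO (log2 3.09, SE 0.21). All 3 genes stood under 1 CPM in each WT library. Nnat, an imprinted proteolipid known from brain, was at 4.86, 5.69, 5.58 and 3.65 CPM in WT and at 23.1, 21.8, 27.2 and 25.3 CPM in KO (log2 2.30, SE 0.14, adjusted p = 0.0002). Ntrk2, the receptor of brain-derived neurotrophic factor, was at 12.1, 26.6, 14.2 and 15.3 CPM in WT and at 58.7, 44.7, 53.3 and 56.8 CPM in KO (log2 1.65, SE 0.23, adjusted p = 0.0103). All 5 calls held in each fit without 1 library.

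Other large rises were less secure. Calml3 (log2 2.13), Tubb1 (1.75) and Avpr1a (1.62) lost their calls without WT 4, WT 5, WT 6, KO 4 or KO 5, at adjusted p of up to 0.0950, 0.0736 and 0.0860. Calml3 encodes a calmodulin-like protein of epithelia, Tubb1 the beta tubulin of platelets, and Avpr1a a vasopressin receptor. Zim1 (1.63), an imprinted zinc finger gene, lost its call without WT 4, WT 5, KO 3, KO 4 or KO 5, at up to 0.124. Megf11 (1.64) lost it without WT 4 alone, at 0.0508, and Lingo4 (1.61) without WT 5 alone, at 0.0653. The processed pseudogenes Gm16072 (1.88) and Gm3617 (1.57) were called in each such fit, but 30.4% and 62.1% of their 31-base words also occur in transcripts of other genes, so their reads are uncertain.

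The falls outside the clock began with Slc13a4, a sodium-coupled sulfate transporter. It was at 3.72, 2.80, 4.50 and 3.003 CPM in WT 3 to WT 6 and at 0.320, 0.240, 0.626 and 0.250 CPM in KO 3 to KO 6 (log2 −3.31, SE 0.31, adjusted p = 0.0017). Ryr3, a calcium release channel, was at 3.73 to 5.11 CPM in WT and 0.895 to 1.80 CPM in KO (log2 −1.72, SE 0.21, adjusted p = 0.0068). Cys1, a protein of the primary cilium, was at 12.95 to 14.1 CPM in WT and 2.96 to 6.09 CPM in KO, with KO 6 the highest of KO (log2 −1.63, SE 0.19). Itih4, an inter-alpha-trypsin inhibitor heavy chain, was at 52.8, 85.7, 69.9 and 87.9 CPM in WT and at 23.9, 28.0, 36.0 and 29.8 CPM in KO (log2 −1.33, SE 0.18, adjusted p = 0.0089). Ccn5, a matricellular protein (log2 −1.29), Ildr2 (−1.29) and Mfsd4a (−1.30) also fell and were called in each fit without 1 library. Nat8f3 (−1.41) did so too, with 55.6% of its words shared with other genes.

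Less secure among the falls were Ttyh1 (log2 −1.70), lost without WT 4, WT 5, WT 6, KO 3, KO 4 or KO 5, at up to 0.0953, and Cpxm1 (−1.46), lost without WT 4, WT 5, WT 6, KO 3, KO 4 or KO 6, at up to 0.0787. Serpina3h (−1.46) lost its call without WT 4, WT 5, KO 4 or KO 5, at up to 0.0606, and shares 39.8% of its words. Igkv4-59, an immunoglobulin light chain segment, was at 11.3, 5.28, 10.5 and 4.96 CPM in WT and at 2.88, 1.08, 2.64 and 0.974 CPM in KO (log2 −2.10, adjusted p = 0.0498). It lost its call in every fit without 1 library, at up to 0.136, and 87.0% of its words are shared. Immunoglobulin segments together summed to 1029 to 5692 CPM in WT and 252 to 2352 CPM in KO. Of 137 tested, 1 was called, with a median of −1.28 (−1.08 without KO 6). Markers of B and plasma cells summed to 352 to 1666 CPM in WT and 126 to 730 CPM in KO, and none of 12 was called by edgeR or DESeq2, with 0 at an unadjusted p under 0.05. The part of B cell content in these values was not tested.

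The most precise changes at higher levels were moderate in size. Lhfp, a tetraspan membrane protein gene, was at 101 to 107 CPM in WT and 143 to 151 CPM in KO (log2 0.49, SE 0.03, adjusted p = 0.00029). Colq, the collagen tail of acetylcholinesterase, was at 19.7 to 22.5 CPM in WT and 37.1 to 47.55 CPM in KO (log2 1.08, SE 0.08, adjusted p = 0.00064). Liph, a lipase that makes lysophosphatidic acid, rose by 0.62 (SE 0.05), and Mgll, which cleaves monoacylglycerols, by 0.57 (SE 0.04). Mgp, the matrix Gla protein that inhibits calcification, was at 420, 422, 458 and 424 CPM in WT 3 to WT 6 and at 195, 238.5, 242 and 226.5 CPM in KO 3 to KO 6 (log2 −0.93, SE 0.07, adjusted p = 0.00062). The groups stood well apart for each of these genes, and all calls held in each fit without 1 library.

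Extracellular matrix genes were called in both directions. Of 18 elastic fibre genes, 2 were higher and 3 lower (27.8% against 2.22% of all rows), with a median of −0.09 against 0.00 over all rows. The counts were the same without KO 6. This list and that of the collagens were chosen with earlier results of these data known, so their shares are no test of enrichment. Ltbp4, which anchors latent TGF beta and assists elastic fibre assembly, was at 627, 617, 643 and 660 CPM in WT 3 to WT 6 and at 388, 374, 361 and 375 CPM in KO 3 to KO 6 (log2 −0.77, SE 0.04, adjusted p = 6.2e-05). Fbln1, encoding fibulin 1, was at 55.5 to 69.97 CPM in WT and 27.7 to 37.9 CPM in KO (log2 −0.91, SE 0.12, adjusted p = 0.0082). Efemp1, encoding fibulin 3, fell by 0.59 on the log2 scale (adjusted p = 0.0213), a call lost without WT 3, WT 4, WT 5, KO 4 or KO 5 at up to 0.0716. In the other direction, Mfap4, a microfibril-associated protein, was at 191, 268, 233 and 317 CPM in WT and at 542, 548, 710 and 454 CPM in KO (log2 1.16, SE 0.18, adjusted p = 0.0160). Without WT 4 or WT 5 its adjusted p was up to 0.0594. Fbn2, a fibrillin of developing microfibrils, was at 1.74 to 2.93 CPM in WT and 4.84 to 6.16 CPM in KO (log2 1.29, SE 0.17, adjusted p = 0.0081). Elastin itself was not called (Eln, log2 0.48, SE 0.15, adjusted p = 0.172).

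Of 21 collagen genes, 5 were called higher and none lower (23.8% against 2.22% of all rows), with a median of 0.13. Without KO 6, 5 were higher and 1 lower. The chains that form the alveolar basement membrane network rose by like amounts. Col4a3 was at 371, 389, 365 and 371 CPM in WT 3 to WT 6 and at 544, 478, 492 and 520 CPM in KO 3 to KO 6 (log2 0.44, SE 0.05, adjusted p = 0.0040). Col4a4 was at 189 to 201 CPM in WT and 247 to 278 CPM in KO (log2 0.42, SE 0.04, adjusted p = 0.0025). Col4a5 was at 127 to 140 CPM in WT and 182 to 198 CPM in KO (log2 0.53, SE 0.04, adjusted p = 0.00095). All 3 calls held in each fit without 1 library. Col1a1 (log2 0.54), the main fibrillar chain, lost its call without WT 4, WT 5, KO 4 or KO 5, at up to 0.105, and Col5a1 (0.30) without WT 3, WT 4, WT 6, KO 3, KO 4 or KO 5, at up to 0.0837.

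Mesenchymal markers split as the matrix did. Of 14 fibroblast markers, 1 was higher and 3 lower (28.6% against 2.22% of all rows), with a median of −0.29, and without KO 6, 2 were higher and 3 lower. Npnt, a basement membrane ligand of integrins, rose from 538 to 619 CPM in WT to 743 to 790 CPM in KO (log2 0.39, SE 0.05, adjusted p = 0.0076). Lum, the proteoglycan lumican, was at 4.86 to 6.26 CPM in WT and 1.86 to 3.18 CPM in KO (log2 −1.14, adjusted p = 0.0143), a call lost without KO 4 alone, at 0.0508. Dpt (log2 −0.42) held its call only without KO 6 and was otherwise at up to 0.122. Summed over the list, fibroblast markers were at 5745 to 6115 CPM in WT and 5773 to 6737 CPM in KO. Of 9 pericyte markers, Trpc6, a cation channel (log2 0.52, adjusted p = 0.0029), and Postn (log2 0.31, adjusted p = 0.0497) were called higher (22.2% against 2.22% of all rows). All 9 had positive values, with a median of 0.31. The call of Postn was lost in each fit without 1 library, at up to 0.137. Pericyte markers summed to 889 to 965 CPM in WT and 1052 to 1222 CPM in KO, without overlap, and their part in the matrix changes was not tested.

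**Figure D3:**
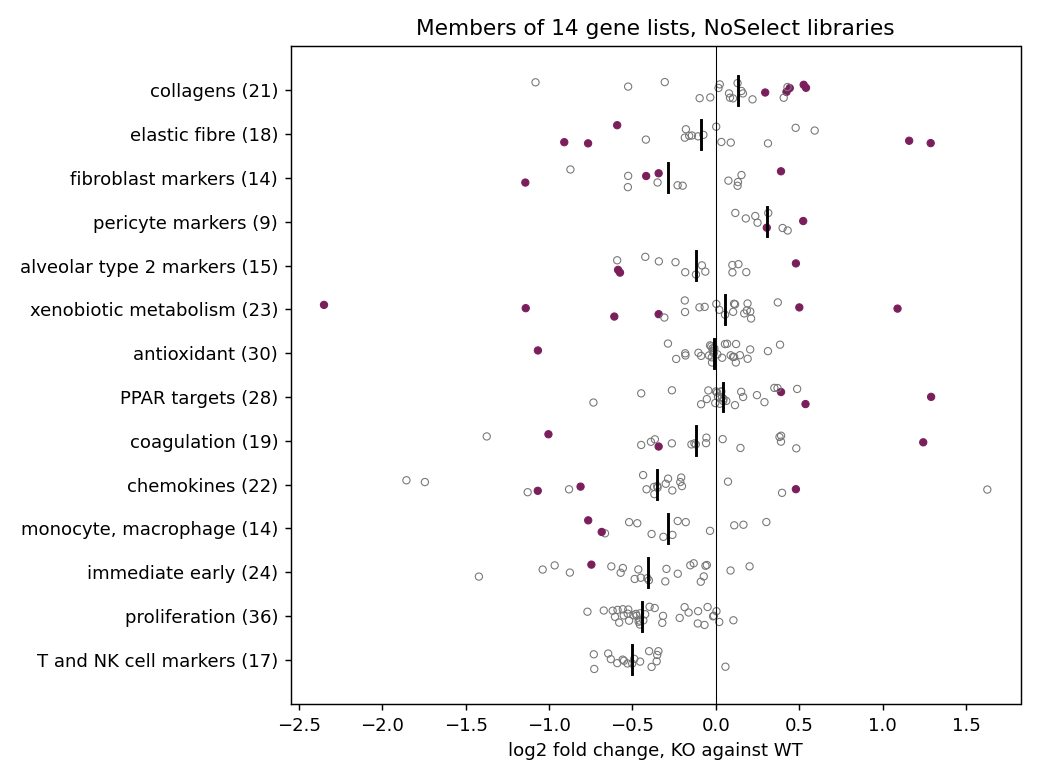
Log2 fold change, KO against WT (x), of the tested members of 14 gene lists (y, number tested in brackets). Filled points were called, open points were not, and black bars mark the medians. Collagens and pericyte markers lie mostly right of 0, and immediate early, proliferation and T and NK cell genes mostly left of it, the last 2 with no call.

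In the alveolar epithelium, the collectin genes fell. Sftpa1, surfactant protein A, was at 1991, 2169, 2015 and 1891 CPM in WT 3 to WT 6 and at 1187, 1293, 1338 and 1599 CPM in KO 3 to KO 6 (log2 −0.57, SE 0.09, adjusted p = 0.0178). Sftpd, surfactant protein D, was at 455 to 568 CPM in WT and 293 to 386 CPM in KO (log2 −0.59, SE 0.10, adjusted p = 0.0255). The groups did not overlap, and KO 6 was the nearest to WT for both. Both calls were lost without WT 4, WT 5, KO 4 or KO 5, that of Sftpd also without WT 6, at up to 0.0668 and 0.0815, while without KO 6 their adjusted p fell to 0.0034 and 0.0189. The hydrophobic surfactant genes Sftpb and Sftpc were not called, with Sftpc at 4617 to 5659 CPM in WT and 4119 to 6068 CPM in KO. Cxcl15, the chemokine lungkine made by lung epithelium, was at 556 to 664 CPM in WT and 787 to 975 CPM in KO (log2 0.48, adjusted p = 0.0265), and was called only without KO 3 or KO 6, otherwise at up to 0.0788. Of 15 alveolar type 2 markers, 1 was higher and 2 lower, 20% against 2.22% of all rows (1 and 5 without KO 6). Their sum was 13170 to 15770 CPM in WT and 11660 to 15810 CPM in KO, with groups overlapping. None of 14 type 1 cell markers was called by edgeR, 4 had an unadjusted p under 0.05, and DESeq2 called 1.

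Enzymes that handle foreign compounds changed in both directions. Of 23 such genes tested, 2 were higher and 4 lower (26.1% against 2.22% of all rows), with a median of 0.06. Without KO 6, none was higher and 5 lower. Of these calls in the full fit, 1 held in each fit without 1 library. The list was chosen with earlier results of these data known, so its share is no test of enrichment. Fmo2, the main flavin monooxygenase of lung, was at 749, 899, 825 and 836 CPM in WT 3 to WT 6 and at 572, 476, 573 and 550 CPM in KO 3 to KO 6 (log2 −0.61, SE 0.08, adjusted p = 0.0068). Its call held in each fit without 1 library. Cyp2a5, a P450 that oxidizes nicotine and coumarin, was at 28.0, 12.2, 9.75 and 9.84 CPM in WT and at 1.73, 3.44, 2.68 and 3.78 CPM in KO (log2 −2.35, SE 0.40, adjusted p = 0.0252). WT 3 was far above the other WT libraries, the call was lost without WT 4, KO 3, KO 4 or KO 5 at up to 0.0867, and 54.6% of its words are shared with other genes. The carboxylesterases Ces1d (log2 −0.34) and Ces1g (−1.14) lost their calls without WT 4 or WT 5 and also without KO 5 and KO 4, in turn, at up to 0.0648 and 0.0606. Cyp2s1 (log2 0.50) and Aldh3a1 (1.09) were higher, but were called without WT 3 or KO 3 and without KO 3 only, and otherwise reached 0.103 and 0.113. Among 30 antioxidant genes, only Gsta3, a glutathione transferase, was called (3.33%). It was at 67.0, 74.5, 70.9 and 60.3 CPM in WT and at 28.2, 34.2, 27.8 and 39.6 CPM in KO (log2 −1.07, SE 0.12, adjusted p = 0.0045), and held in each fit without 1 library.

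Lipid oxidation genes gave 3 rises and no fall among 28 tested (10.7% against 2.22% of all rows), with a median of 0.04, and 2 rises without KO 6. Acaa2, the last thiolase of mitochondrial beta oxidation, rose by 0.39 (SE 0.05, adjusted p = 0.0093), and its call held in each fit without 1 library. Acot1 (log2 0.54) held only without KO 4 and was otherwise at up to 0.111, and 22.7% of its words are shared. In glycolysis 1 of 20 rows was called (5%), Hk2, at 41.5 to 53.6 CPM in WT and 22.1 to 36.4 CPM in KO (log2 −0.75, adjusted p = 0.0400), which held only without KO 6 and was otherwise at up to 0.114. The lists of cholesterol synthesis (23 tested), fatty acid synthesis (22), NAD salvage (19) and nuclear-encoded oxidative phosphorylation (31) held no call by edgeR. Their members with an unadjusted p under 0.05 numbered 3, 7, 0 and 2. DESeq2 called 2 fatty acid synthesis genes lower and 0 in the other 3 lists.

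Several immune genes fell. Cxcl14, a chemokine of epithelia and fibroblasts, was at 52.4, 58.4, 66.8 and 65.6 CPM in WT 3 to WT 6 and at 25.9, 34.0, 32.7 and 23.5 CPM in KO 3 to KO 6 (log2 −1.07, SE 0.13, adjusted p = 0.0062), in each fit without 1 library as well. Ccl9 (log2 −0.81, adjusted p = 0.0348) lost its call without WT 3, WT 5, WT 6, KO 3, KO 4 or KO 5, at up to 0.105. Of 22 chemokines, 1 was higher and 2 lower (13.6% against 2.22% of all rows), and 18 had negative values, with a median of −0.35 (−0.28 without KO 6). The complement genes C1qa (log2 −0.68) and C1qc (−0.76), made by interstitial macrophages, were called lower. C1qc lost its call without WT 4, KO 4 or KO 5, at up to 0.0668, and C1qa without WT 3, WT 4, WT 5, KO 4, KO 5 or KO 6, at up to 0.0988. Markers of monocytes and interstitial macrophages summed to 1555 to 1841 CPM in WT and 1525 to 1928 CPM in KO, with groups overlapping. None of 14 alveolar macrophage, 12 neutrophil, or 17 T and NK cell markers was called by edgeR, with 1, 5 and 3 at an unadjusted p under 0.05. DESeq2 called 4 neutrophil markers higher and 0 of the other lists, and without KO 6 edgeR called 4 of them higher. Of the 12 neutrophil markers, 7 had positive and 5 negative values. Neutrophil markers summed to 150.5 to 305 CPM in WT and 126 to 242 CPM in KO, with groups overlapping. T and NK cell markers had a median of −0.50 (−0.37 without KO 6). Their sum was 66.8 to 120 CPM in WT and 48.9 to 83.2 CPM in KO.

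Of 19 coagulation and fibrinolysis genes, 1 was called higher and 2 lower (15.8% against 2.22% of all rows), with a median of −0.12. Without KO 6, 2 were higher and 3 lower. Gas6, the vitamin K dependent ligand of the TAM receptors, was at 209 to 214 CPM in WT and 157 to 180 CPM in KO (log2 −0.34, SE 0.05, adjusted p = 0.0114), with a call in each fit without 1 library. F3, tissue factor, was at 29.0 to 36.4 CPM in WT and at 14.8, 15.2, 14.4 and 23.2 CPM in KO 3 to KO 6 (log2 −1.003, adjusted p = 0.0178). Its call was lost without WT 4, WT 5, KO 4 or KO 5, at up to 0.0648, and its adjusted p was 0.0011 without KO 6. F5 (log2 1.24), coagulation factor V, held only without KO 3 or KO 6 and was otherwise at up to 0.0904. Reln, made by lymphatic endothelium, was at 21.5 to 25.7 CPM in WT and 14.5 to 16.4 CPM in KO (log2 −0.61, SE 0.07, adjusted p = 0.0045). Lymphatic markers summed to 395 to 452 CPM in WT and 291 to 346 CPM in KO, and Lyve1 (log2 −0.55) held only without KO 3 and was otherwise at up to 0.136. Egfl7 (log2 0.31), of blood endothelium, lost its call without WT 4 or WT 6, at up to 0.0648. Of 6 lymphatic markers 2 were called lower (33.3%), and of 18 endothelial markers 1 was called higher (5.56%), against 2.22% of all rows.

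The remaining lists held 1 call or none, where 2.22% of all rows were called. Myc (log2 −0.75) was called among 24 immediate early genes, 22 of which had negative values (median −0.41, and −0.32 without KO 6). Its call held only without WT 5 or KO 3, otherwise at up to 0.0905. Cdkn1c (0.48) was called among 20 glucocorticoid targets (median −0.37) and held only without WT 4 or KO 4, otherwise at up to 0.120. Sdf2l1 (−0.47) held only without WT 3 or KO 6, otherwise at up to 0.0848, and Ifi27l2a (−0.68) was lost without WT 4, KO 4 or KO 5, at up to 0.0704. They were the sole calls among 24 heat shock and 28 interferon-stimulated genes. Dnah11 (0.52), an axonemal dynein, was the sole call among 18 ciliated cell markers, all of which had positive values (median 0.22), and was lost without WT 4, WT 5 or KO 4, at up to 0.0614. Upk1b (0.50) was the sole call among 9 mesothelium markers, the other 8 of which had negative values (median of the list −0.20, and −0.30 without KO 6). Its call held only without WT 6 and was otherwise at up to 0.133. None of 36 proliferation genes was called by edgeR, while DESeq2 called 4 lower. Of these 36, 33 had negative values and 17 an unadjusted p under 0.05 (median −0.44, and −0.34 without KO 6). None of 11 MHC class II genes, 16 MHC class I genes and 19 stress response genes was called, by edgeR, with 2, 1 and 5 at an unadjusted p under 0.05, and DESeq2 called 1 class II gene lower and 0 in the others.

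Libraries without selection also hold RNA that selection removes. The RNA classes below were counted whether or not selection removes them, and held no called row by edgeR. This was so for 49 small nuclear RNA rows, with 0 at an unadjusted p under 0.05, and for 126 small nucleolar RNA rows, with 1. The same held for 54 replication-dependent histone genes with 11, 15 mitochondrially encoded rows with 1, 80 ribosomal protein genes with 3, and 9 ribosomal RNA rows with 0. DESeq2 called 1 mitochondrial row higher, 3 histone genes lower and 0 rows of the other 4 classes. The median SE was 0.37 for small nuclear and 0.27 for small nucleolar rows, against 0.08 for protein coding genes outside the other classes, so only larger changes were detectable there. Histone genes had a median of −0.35 (44 of 54 negative), and −0.26 without KO 6. Long noncoding genes held 4 calls among 856 (0.467%, median SE 0.21) and pseudogenes 6 among 371 (1.62%, median SE 0.24), against 2.22% of all rows.

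As shares of a library's counts, no class was called by a two-sided exact permutation test of 4 against 4, which cannot go below p = 0.0286. Adjusted over the 12 shares, a single class at that floor could not come under 0.05, so the adjusted test could not show a difference in 1 class. The smallest exact p was 0.0857. Mitochondrially encoded RNA held 10.3% ± 0.644 (SD, n = 4) in WT and 11.5% ± 0.635 (SD, n = 4) in KO, with an exact p of 0.0857 and an adjusted p over the 12 shares of 0.514. Small nuclear RNA held 1.51% ± 0.455 (SD, n = 4) of WT counts and 1.58% ± 0.434 (SD, n = 4) of KO counts, with an exact p of 0.629. The libraries WT 5, at 0.848%, and KO 5, at 0.931%, lay below the other 6, at 1.59% to 1.86%. Small nucleolar RNA was lowest in the same pair, at 0.220% and 0.233%. The share of the 2 rows left out was 68.4% ± 0.315 (SD, n = 4) in WT and 69.9% ± 1.597 (SD, n = 4) in KO, with an exact p of 0.143.

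**Figure D4:**
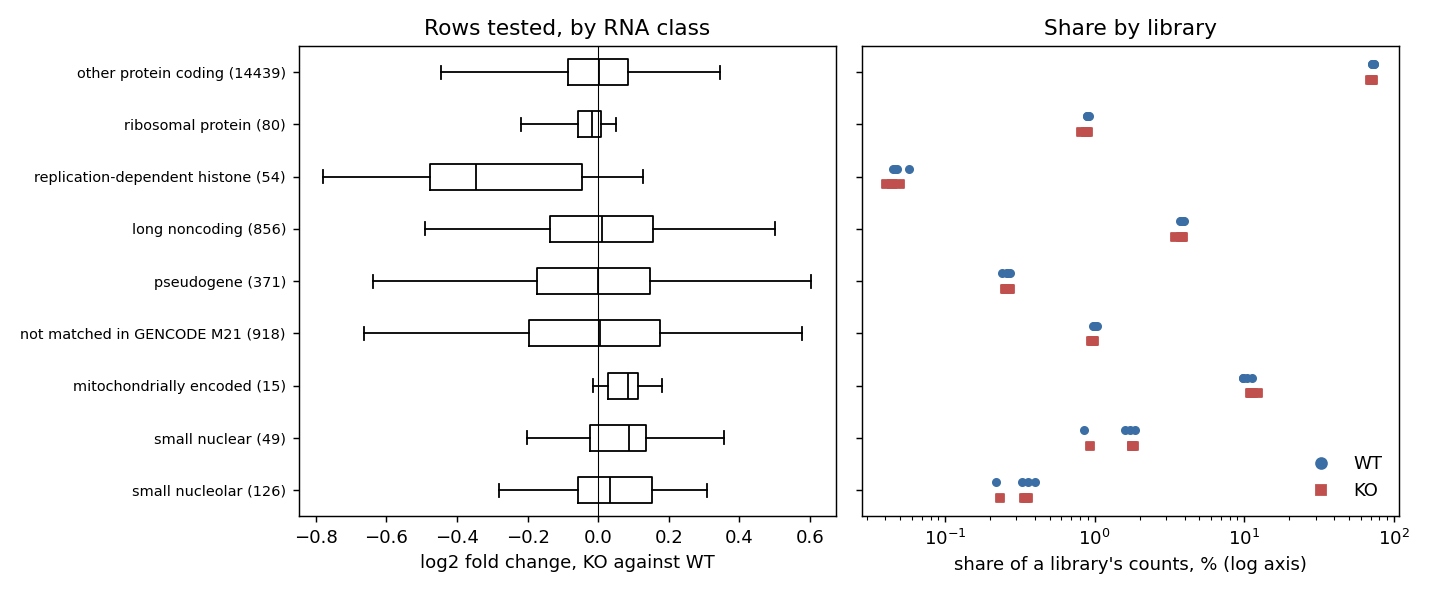
Left, log2 fold change, KO against WT, of tested rows by RNA class (number in brackets), with boxes for the quartiles, lines for the medians and whiskers from the 5th to the 95th percentile. Right, each class's share of a library's counts (log axis) in the 4 WT (circles) and 4 KO (squares) libraries. The histone box lies left of 0, and 1 WT and 1 KO library have low small nuclear and nucleolar shares.

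Rows that carry a transcript identifier absent from GENCODE M21 included the most extreme values, and they were picked out after their values were seen. ENSMUST00000093344 held 1022 to 2134 counts in the WT libraries, 33.3 to 77.2 CPM, and 0 counts in all 4 KO libraries. Against a floor of 3 counts a library, it was at least 538-fold lower in KO (adjusted p = 0.0019, up to 0.0129 in the fits without 1 library). In the other preparations it held 788 to 1901 counts in RiboZero WT and 2013 to 5502 in PolyA WT, and 0 in all 12 KO libraries. ENSMUST00000180620 held 55 to 94.2 counts in NoSelect KO and 0 in WT, at least 26.3-fold higher (adjusted p = 0.00064). It was at or under 18.2 counts in each RiboZero and PolyA library. What these rows hold beyond their identifiers is not given in the sources used here.

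The 8 mice were also measured as RiboZero and PolyA libraries, so the KO effect was compared between preparations as an interaction in edgeR. Both comparisons use the same NoSelect libraries. Against RiboZero, 1 of 17553 rows differed (0.0057%), and against PolyA none of 18459 (0%), with 232 and 557 rows at an unadjusted p under 0.05. DESeq2 called 9 and 11. The row that differed from RiboZero was ENSMUST00000006570, also absent from GENCODE M21. It held 99.4 to 319 counts in all 8 NoSelect libraries, 83.8 to 129 in the RiboZero libraries of WT 3 to WT 6, and 0 in those of KO 3 to KO 6. PolyA libraries of both genotypes held it at 0 in some mice. Serpina3h was at −1.46 in NoSelect, 0.30 in RiboZero and −0.62 in PolyA, with an unadjusted interaction p of 0.00048 against RiboZero.

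The values of several leading genes lay close in the 3 preparations. Nr1d1 was at −4.77, −4.67 and −5.19 in NoSelect, RiboZero and PolyA, on the log2 scale of KO against WT. Cry1 was at 1.38, 1.45 and 1.44, and Ltbp4 at −0.77, −0.69 and −0.84. Mfap4 was at 1.16, 1.17 and 0.96, and Cxcl14 at −1.07, −1.09 and −1.08. For 7 named genes the unadjusted interaction with PolyA was under 0.05, though no adjusted p was lower than 0.99998. Arntl was at −0.69 (SE 0.05) in NoSelect and −0.93 (SE 0.08) in RiboZero, but −0.33 (SE 0.07) in PolyA (unadjusted p = 0.0004 against PolyA). Col4a3 was at 0.44 and 0.45 in NoSelect and RiboZero and at 0.03 in PolyA (unadjusted p = 0.0016), Col4a4 at 0.42, 0.50 and 0.03 (0.0090), and Col4a5 at 0.53, 0.56 and 0.09 (0.0044). Sv2c was at 3.16, 2.85 and 1.23 (0.0020), and Ryr3 at −1.72, −1.69 and −0.38 (0.0044). Gsta3 was at −1.07, −1.02 and −0.62 (0.0188).

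Because libraries of one mouse deviate together, the interaction was also fitted with the mouse as a block. Against RiboZero the count stayed at 1, the same row. Against PolyA, 1 of 18459 rows was called (0.00542%). This was Gsta3, with a log2 fold change in NoSelect minus that in PolyA of −0.49 (adjusted p = 0.0275). Gsta3 was at 27.8 to 39.6 CPM in NoSelect KO against 60.3 to 74.5 CPM in WT, and at 93.4 to 126 CPM in PolyA KO against 147 to 190 CPM in WT. In the same fit the 3 Col4 chains and Arntl were at adjusted p between 0.386 and 0.558.

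**Figure D5:**
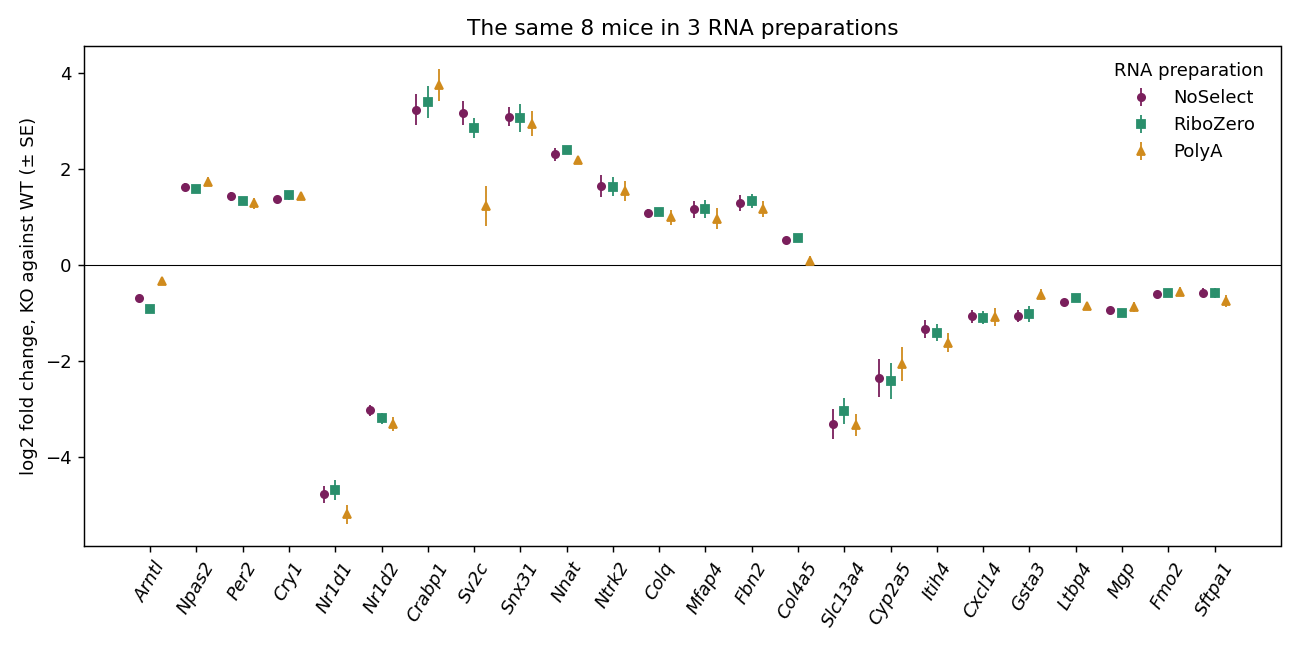
Log2 fold change, KO against WT (y, ± SE of the fit), of 24 named genes in the NoSelect (circles), RiboZero (squares) and PolyA (triangles) libraries of the same 4 KO and 4 WT mice. Arntl, Sv2c, Col4a5 and Gsta3 lie nearer to 0 in PolyA.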

How the data were processed

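RNA of mouse lung was sequenced as TruSeq total RNA libraries without depletion (NoSelect) and, in the same mice, as RiboZero and PolyA libraries. Values are estimated counts as deposited, in 1 gene table of 41687 rows and 32 library columns, each matched to a sample by its name. Per the submitters' processing notes, UMI-tools 1.1.1 and Salmon 1.4.0 were used with build GRCm38, and the annotation is not given in the sources used here. Of the NoSelect values, 12.8% were not whole. Gene types, chromosomes and transcript sequences came from GENCODE M21, in which 328 of 3936 transcript rows were found.

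Counts were rounded to whole numbers. Lars2 and ENSMUST00000182010 were left out of totals and tests. Tests used R 4.3.3 and edgeR 4.0.16 (filterByExpr, TMM, glmQLFit, glmQLFTest, genotype alone) with Benjamini-Hochberg adjustment, and DESeq2 1.42.0 as an alternative. Interactions used mice 3 to 6 of both preparations. Shares were tested in Python 3.11.15 with scipy 1.17.1. P-values of KO against WT weigh a difference against the spread between these animals. The main interaction fit treats libraries of one mouse as separate, and the fit with the mouse as a block does not. The members and lists were chosen with earlier results of these data known, so the shares of called members are no test of enrichment. Of the list symbols, 1 had no row in the table.

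Named genes are Arntl, the clock lists, the 15 highest and 15 lowest calls with a symbol, no overlap and a mean of at least 0 log2 CPM, leaving out Xist and the Y chromosome, the 10 calls of smallest p at a mean of at least 5, called list members (at most 6 a list), called small RNA, histone or mitochondrial rows, and called interaction rows. Sftpb, Sftpc and Eln, and the identity genes of KO 6, were named beyond this rule, and a few genes that meet it are counted but not reported here. A call that is lost means an adjusted p of 0.05 or more. The share of 31-base words found in other genes' transcripts marks genes whose reads may be split.

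Libraries of one mouse are paired across preparations: the design text says that 4 mice of each genotype were prepared this way in addition, and deviations from group means over 10621 rows correlated at 0.334 to 0.563 with RiboZero and 0.416 to 0.647 with PolyA, each library correlating best with its own mouse in 8 of 8 cases. The fit was tested on simulated counts of 17106 rows with 200 changed. For KO against WT it called 97.0% and 93.9% of rows changed by a log2 of −2 and 2, 69.7% and 85.3% at −1 and 1, and 36.4% and 47.1% at −0.5 and 0.5. Each of these shares rests on 33 or 34 rows and does not hold for rows at lower levels. Alternatives were other scalings, filters and tools, identifiers of genes alone, blocks, and each library left out.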

Additional observations from a re-analysis of the deposited data

Results flagged for a closer look

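Single libraries stood apart from the other 3 of their group, by Dixon's ratio, in 17 of 224 groups examined. Chance does so in about 5% of groups. The values in KO 5 were 1.745 CPM for Arntl2, 11.5 CPM for Cpxm1, 44.2 CPM for Upk1b and 0.931% for the small nuclear RNA share. KO 6 gave 3.81 CPM for Lingo4, 6.98 CPM for Ccn5, 23.2 CPM for F3 and 0.445 CPM for Xist. WT 3 gave 8.999 CPM for Bhlhe41, 1.96 CPM for Avpr1a and 28.0 CPM for Cyp2a5. WT 5 gave 0.504 CPM for Crabp1, 458 CPM for Mgp and 18.2 CPM for Ifi27l2a. WT 6 gave 29.1 CPM for Cpxm1 and 276 CPM for Ces1d, and WT 4 gave 19.8 CPM for Cdkn1c.

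The KO effect on ENSMUST00000006570 differed between NoSelect and RiboZero by a fitted log2 of 10.03 (adjusted p = 2.9e-05 in edgeR). The RiboZero KO libraries of these mice are at 0, so the size depends on the prior count. Its RiboZero libraries of KO 1 and KO 2 held 94 and 70 counts, and that of WT 2 held 0.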

How the results depend on the processing

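For KO against WT, 379 rows were called. DESeq2 called 879, and the replicate block (library number) 104, of which 95 were among the 379. Calls held in each fit without 1 library but lost with this block included Ypel2, Ntrk2, Ryr3, Mfsd4a, Ildr2, Fmo2, Fbn2, Fbln1 and Gas6. Their adjusted p in edgeR was then 0.0530 to 0.0875. A number shared by a WT and a KO library marks no shared animal, and the deviations of such libraries correlated at 0.0334 to 0.146, with 3 of 4 highest for their own number. Leaving out 1 library in turn gave 146 to 473. The other scalings, filters and row sets gave 305 to 431. All 86 named calls kept their sign without each library, and 43 stayed called throughout. Without KO 6, 73 stayed called and the largest move was 0.24 on the log2 scale (Igkv4-59). The 13 lost then were at adjusted p between 0.0501 and 0.0741. The signs of uncalled Arntl2 and Ciart turned. Arntl2 was at 0.0334, 0.0358, 0.0603 and 0.0432 without WT 4, KO 3, KO 4 and KO 6, within a range of −0.1927 to 0.0603. Ciart was at −0.06 without WT 3 and −0.0495 without KO 6, within −0.06 to 0.1097. Interaction counts were 1 for RiboZero and 0 for PolyA. DESeq2 gave 9 and 11, and at least 10 counts in each library gave 0 and 0. For PolyA the replicate block gave 1, leaving out mouse KO 6 gave 1, and both together, an alternative chosen after seeing the data, 3. No RNA class share was called under any setting, though a single class at the lowest possible exact p could not have been called either.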

Other observations

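A pair of genes below the level set for naming were called in each fit without 1 library, and are named after their values were seen. Tex11, an X-linked meiosis gene, was at 0.913, 0.907, 1.01 and 0.724 CPM in WT 3 to WT 6 and at 0, 0.0800, 0 and 0.0557 CPM in KO 3 to KO 6 (adjusted p = 0.0047, 0.0138 without KO 6). Gkn3, a gastrokine gene, was at 0.522 to 1.16 CPM in WT and 0.0913 to 0.167 CPM in KO (adjusted p = 0.0072). Among the rows absent from GENCODE M21, ENSMUST00000107292 (log2 1.35), ENSMUST00000126783 (1.76) and ENSMUST00000181988 (3.28) were called in each such fit as well. Of the 526 rows tested on the X chromosome, 14 were called, beside 379 of 17106 over all rows. The Y-linked Ddx3y, Eif2s3y, Kdm5d and Uty had counts in KO 6 alone. The filter on low counts therefore left them out, and they could not be called.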
